A study of Mus musculus with 22 samples.

Results

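Hyaluronan genes were followed in dermal fibroblasts of the mouse back after surgery with or without a skin expander. The 8 genes were chosen by name and by role, with earlier results of these data known. Has1 and Has2 encode synthases, Hyal1, Hyal2 and Cemip encode proteins of hyaluronan breakdown, and Cd44, Vcan and Tnfaip6 encode hyaluronan-binding proteins. All 8 were found by symbol among the 55414 genes of the count table, and all 8 were among the 17554 genes with enough counts to be tested. Cemip had 0 to 11 counts in CTRL libraries and passed that filter only through EXP libraries, where it is high. Every mouse was operated on. EXP mice received an expander hydrogel under the skin near the neck, a material made to swell and stretch the skin above it, and CTRL mice received none. Skin was taken on day 1, 2 or 4 and dissociated, and cells were sorted as live, negative for CD31, CD45, CD117 and EpCAM, and positive for CD34 and PDGFRα. The 22 libraries of bulk RNA sequencing form 6 groups, with CTRL in 4, 3 and 4 libraries and EXP in 5, 3 and 3 libraries on days 1, 2 and 4. Strain, sex and age are not given in the sources used here. The labels do not say how many mice went into a library, so p-values measure the spread between these libraries.

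Hyaluronan is a long unsulfated sugar chain that is extruded at the plasma membrane by the HAS synthases, from UDP-glucuronic acid and UDP-N-acetylglucosamine, and it makes up much of the water-holding matrix of the dermis. Fibroblasts are its main dermal source. Chains are shortened outside the cell by CEMIP and TMEM2 or at the surface with HYAL2, and are digested in lysosomes by HYAL1 and exoglycosidases. CD44 is the main surface receptor, versican (Vcan) is a large proteoglycan that binds hyaluronan through its link module, and TSG-6 (Tnfaip6) moves heavy chains of inter-alpha-inhibitor onto hyaluronan and cross-links it in inflamed tissue.

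Library totals ran from 21461294 to 30210204 counts. Levels are given as CPM, counts relative to the library total after scaling by TMM (a normalization that assumes most genes do not change). Levels of cell type markers are instead CPM on plain library totals, without TMM, so the 2 scales differ. TMM factors were 0.790 to 0.903 in day 2 CTRL and 1.06 to 1.27 in day 2 EXP. The fibroblast genes Pdgfra and Cd34 were at 185 CPM or more in every library, while Ptprc, the gene of CD45, was at 0.248 CPM or less, Pecam1 at 3.76 or less, Epcam at 1.89 or less and Kit at 0.752 or less. The summed level of 6 adipocyte markers was 3.27 to 5.11 CPM in CTRL and 60.5 to 481 CPM in EXP on day 4, and 3.45 to 7.41 against 10.4 to 119 CPM on day 2. On day 1 the arms overlapped with a lower median in EXP, at 4.1 to 29.1 CPM in CTRL and 1.8 to 12.7 CPM in EXP. Sums of the other marker lists, over all libraries, were 85900 to 327000 CPM for fibroblasts, 42.6 to 132 for leukocytes, 3.99 to 51.3 for keratinocytes, 0.0367 to 11.8 for endothelium, 2.54 to 39.5 for melanocytes and mast cells, 6.85 to 25.1 for pericytes and smooth muscle, 0.0399 to 3.86 for Schwann cells and 0.126 to 5.16 for skeletal muscle. A set of 191 genes around Rnf10 was found from deviations from the group means. Its mean log2 level, not centred by group, split the libraries into 7 high and 15 low ones with a gap of 0.639. The split is thus not independent of the groups. The high ones were 3 of 4 CTRL and 2 of 5 EXP on day 1 and 2 of 4 CTRL on day 4.

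Sequences of 3 promoters are shown, Has1 as the synthase with most transcript and Cemip and Cd44 as the members higher in EXP on every day. No promoter window was available for Has2, so it was neither shown nor searched. Each runs from 250 bases before to 50 bases after the start in RefSeq on GRCm38.p6, all 3 on the minus strand, at chr17:17855139-17855438 for Has1, chr7:84086456-84086755 for Cemip and chr2:102901616-102901915 for Cd44. Capitals mark a motif match.
Has1: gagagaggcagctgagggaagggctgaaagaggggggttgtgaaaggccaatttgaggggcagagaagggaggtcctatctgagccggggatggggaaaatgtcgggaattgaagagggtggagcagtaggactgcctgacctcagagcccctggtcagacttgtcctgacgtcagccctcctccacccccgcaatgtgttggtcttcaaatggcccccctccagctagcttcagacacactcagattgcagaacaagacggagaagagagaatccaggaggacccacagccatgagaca
Cemip: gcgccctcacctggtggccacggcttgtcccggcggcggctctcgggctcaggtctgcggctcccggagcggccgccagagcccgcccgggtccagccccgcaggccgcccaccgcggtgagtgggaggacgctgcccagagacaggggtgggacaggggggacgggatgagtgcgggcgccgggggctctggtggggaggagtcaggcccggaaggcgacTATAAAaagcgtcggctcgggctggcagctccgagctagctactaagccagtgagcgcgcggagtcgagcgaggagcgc
Cd44: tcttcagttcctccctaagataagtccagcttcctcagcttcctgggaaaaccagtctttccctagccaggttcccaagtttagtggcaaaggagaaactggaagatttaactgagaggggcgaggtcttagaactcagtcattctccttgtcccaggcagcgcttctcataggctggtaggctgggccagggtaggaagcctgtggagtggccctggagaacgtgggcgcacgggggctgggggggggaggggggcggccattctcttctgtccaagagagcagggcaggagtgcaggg
Searched on both strands were the AP-1 motif TGANTCA, present in 7.81% of 32851 RefSeq windows of this length, the TEAD motif GGAATG in 14.7% and the TATA box TATAAA in 13.6%. The Cemip window held a single match, a TATA box 29 bases before the start, in a window of 73.7% G and C. The Has1 and Cd44 windows held no match, nor did those of Hyal1 and Vcan. The Tnfaip6 window held an AP-1 match 142 bases and a TEAD match 8 bases before the start, and the Hyal2 window a TEAD match 229 bases before it. A match is a description of the letters and not a shown binding site.

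Between EXP and CTRL, the receptor gene Cd44 and the breakdown gene Cemip rose on all 3 days, Vcan rose on days 2 and 4, Has2 fell on day 1 and Has1 fell on day 2. Hyal1, Hyal2 and Tnfaip6 did not pass the test on any day, Hyal2 by a narrow margin on days 2 and 4. A gene was called at a Benjamini-Hochberg adjusted p under 0.05 in edgeR's quasi-likelihood test over all 17554 genes. On day 1, 3 of the 8 were called (37.5%), 2 higher and 1 lower, where 28.5% of all tested genes were called, 13.6% higher and 14.9% lower. On day 2, 4 were called (50%), 3 higher and 1 lower, against 13.5% of all genes, 7.85% higher and 5.62% lower. On day 4, 3 were called (37.5%), all higher, against 22.5% of all genes, 13.6% higher and 8.96% lower. The median log2 fold change of the 8 was 0.02, 0.34 and 0.82 on days 1, 2 and 4, and that of all tested genes was 0.01, 0.03 and 0.05. Cd44 and Cemip were called higher on all 3 days, as were 2.61% of all tested genes, and 55.7% of all genes were called on no day. Cemip passed the low-count filter only through EXP libraries, where it is high, and it is in each of these counts of higher genes. The 8 were chosen with earlier results of these data known, so the shares and medians are a description only. In bulk RNA, more cells of a kind and more RNA per cell cannot be told apart.

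**Figure D1:**
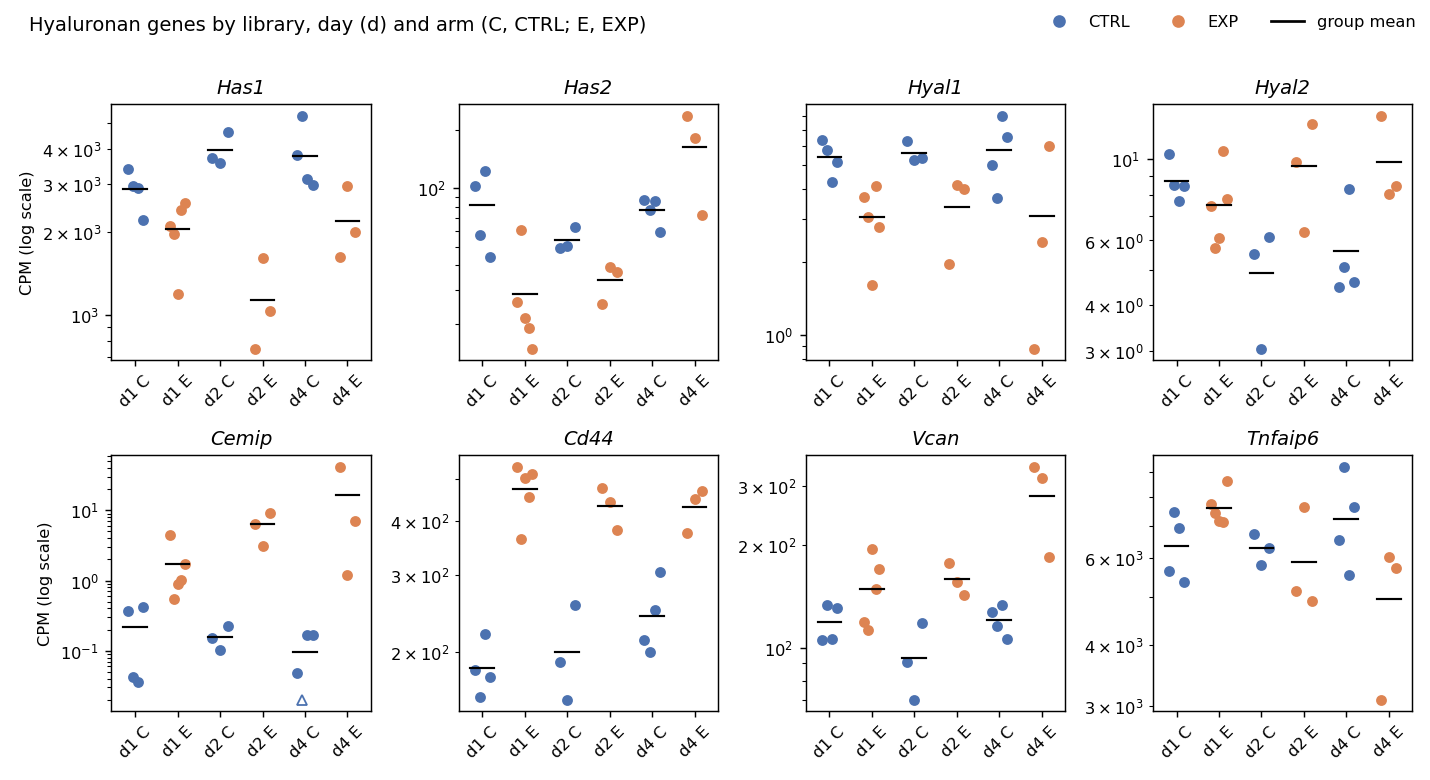
Level of each of the 8 genes in every library, as CPM on a log axis, by day and arm (C, CTRL; E, EXP); points are libraries, lines are group means, and the open triangle is the day 4 CTRL library with 0 Cemip counts. Cd44 and Cemip lie higher in every EXP library than in every CTRL library of the same day.

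**Figure D2:**
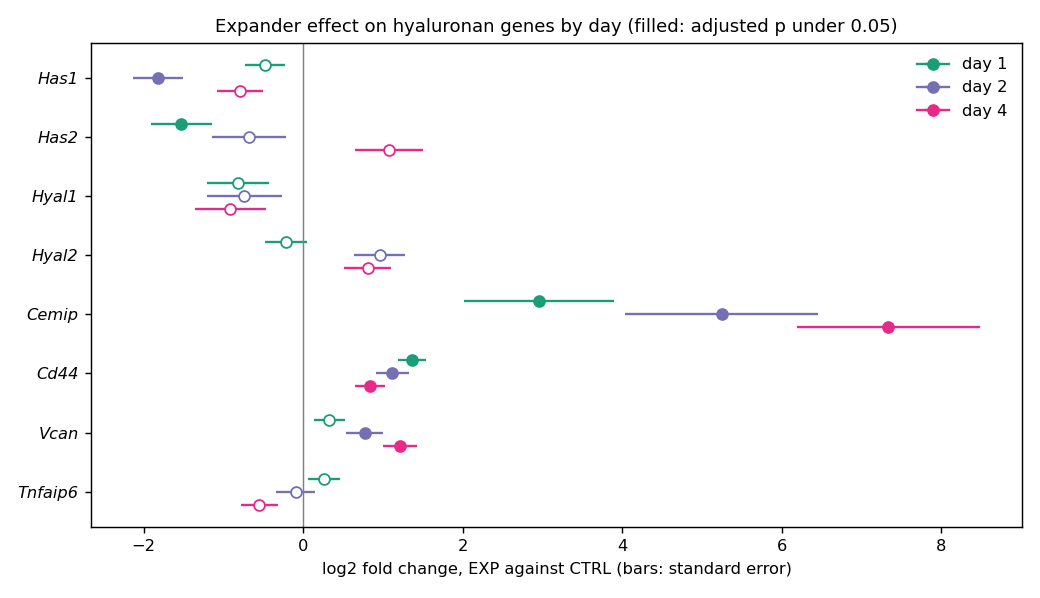
Log2 fold change of EXP against CTRL for the 8 genes on days 1, 2 and 4, with standard errors; filled points had an adjusted p under 0.05. The Has2 points run from -1.52 on day 1 to 1.08 on day 4, and the Cemip points from 2.96 to 7.33.

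Has1, the synthase gene with most transcript here, was lower in EXP on day 2. Has1 (ENSMUSG00000003665) stood at 3719, 3574 and 4641 CPM in day 2 CTRL and at 753, 1606 and 1037 CPM in day 2 EXP. The arms did not overlap, and the highest EXP library, at 1606 CPM, was far below the lowest CTRL library, at 3574 CPM. Has1 fell by 1.81 on the log2 scale (SE 0.313, 3.51-fold lower, edgeR adjusted p = 0.000933), and the call held without each library in turn and under the 11 other settings run. The summed level of the 7 fibroblast markers, nearly all of it Col1a1, Col1a2 and Col3a1, was 293000 to 327000 CPM in CTRL and 85900 to 182000 in EXP on day 2, and 218000 to 264000 and 116000 to 174000 on day 1. The list did not move as a whole on that scale. The sort marker Pdgfra was higher in EXP, at 185 to 211 CPM against 495 to 1290 on day 2 and 296 to 429 against 472 to 860 on day 1. The sort marker Cd34 was lower in EXP on both days. Dcn overlapped on day 1, at 10100 to 13200 CPM in CTRL and 11000 to 12600 in EXP. On day 2 Dcn was at 13100 to 15600 and 11100 to 13200. These day 2 ranges overlapped on plain totals only, and with the TMM factors Dcn would be lower in EXP without overlap. The part of these differences in the Has1 and Has2 values was not tested. On day 1 the CTRL libraries read 3382, 2932, 2904 and 2220 CPM and the EXP libraries 2113, 1975, 1192, 2412 and 2559 CPM. These overlapped, and the log2 fold change of Has1 was -0.48 (SE 0.248, adjusted p = 0.155). On day 4 Has1 was at 3805, 5283, 3112 and 2974 CPM in CTRL and at 1618, 2945 and 2003 CPM in EXP. Here every EXP library was below every CTRL library, the highest EXP value by a narrow margin, and the fold change of -0.79 in log2 (SE 0.289) missed the threshold (adjusted p = 0.0525). Without EXP replicate 2 of day 4, the library nearest to CTRL, it passed (adjusted p = 0.0383), as it did under 5 of the 12 other settings run, DESeq2 among them (adjusted p = 0.0215). The day 2 effect of Has1 minus its day 1 effect was -1.33 (SE 0.396, adjusted p = 0.0704), so a difference between these days was not called, as it was for 3.03% of all tested genes.

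Has2, the synthase gene that mouse embryos cannot do without, fell on day 1, and its day 4 fold change had the opposite sign. Has2 (ENSMUSG00000022367) was at 103, 57.0, 123 and 44.3 CPM in day 1 CTRL and at 25.8, 61.1, 21.5, 19.1 and 14.9 CPM in day 1 EXP. All EXP libraries but replicate 2 lay below the lowest CTRL library. Has2 fell by 1.52 on the log2 scale (SE 0.38, 2.88-fold lower, adjusted p = 0.00543). By side of the library split, Has2 had a log2 fold change of -1.12 (adjusted p = 0.101) among the 3 CTRL and 2 EXP high libraries and of -1.26 (adjusted p = 0.105) among the 3 EXP and the single CTRL low ones, where the lone library is assumed to vary like the others, so that neither side alone passed, and adding the split as a term to the model gave -1.32 (adjusted p = 0.00872). On day 2 Has2 read 49.0, 50.02 and 63.0 CPM in CTRL and 25.3, 39.1 and 36.8 CPM in EXP. The arms did not overlap, but the log2 fold change of -0.68 (SE 0.464) did not pass (adjusted p = 0.362).

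On day 4 Has2 read 86.9, 77.3, 85.4 and 59.3 CPM in CTRL and 235, 182 and 72.7 CPM in EXP. EXP replicates 1 and 2 were above all CTRL libraries and replicate 3 was among them, with a log2 fold change of 1.08 (SE 0.428) that was not called (adjusted p = 0.074). Without EXP replicate 3 it was 1.43 (adjusted p = 0.0173), without replicate 1 it was 0.72 (adjusted p = 0.338), with plain library totals in place of TMM it was 1.48 (adjusted p = 0.0192), with the split as a term it was 1.38 (adjusted p = 0.0244), and within the low side of the split, the side that held all day 4 EXP libraries, it was 0.99 (adjusted p = 0.274). Replicate 3 also had the highest adipocyte marker sum of the day 4 EXP libraries, 481 CPM, against 60.5 in replicate 1 and 185 in replicate 2, and the part of these markers in the Has2 values was not tested.

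The test of a difference itself gave 1 of the 8 genes with an expander effect that depended on day, Has2 (edgeR joint test, adjusted p = 0.0198), where 8.65% of all tested genes were called. The Has2 effect on day 4 exceeded that on day 1 by 2.60 on the log2 scale (SE 0.572, adjusted p = 0.00713). Within EXP, Has2 was 5.74-fold higher on day 4 than on day 1 (log2 fold change 2.52, SE 0.407, adjusted p = 0.000329), and 4.84-fold higher than on day 2 (2.27, SE 0.482, adjusted p = 0.0413). The difference from day 2 rested on few libraries, since it missed the threshold without any of the 3 day 2 EXP libraries (adjusted p = 0.288, 0.151 and 0.122) or without EXP replicate 1 or 2 of day 4 (0.115 and 0.226). It also missed the threshold with plain library totals (0.0517), no filter on low counts (0.113) or the replicate number as a block (0.184). Without EXP replicate 1 of day 4 the joint test of Has2 also missed the threshold (adjusted p = 0.0592), as it did with no filter on low counts (0.0579) or with that block (0.116). The day 4 minus day 1 difference was called without each of the 16 libraries of those days in turn. With the replicate number as a block it was not called (edgeR adjusted p = 0.0564). An antisense gene, Has2os, overlaps 4.3% of the Has2 exon bases on the other strand. Has2os ran at 3.61 to 4.50 CPM in day 1 CTRL and 0.55 to 3.17 CPM in day 1 EXP, and whether reads were assigned by strand is not given in the sources used here.

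Per kilobase of exon, Has1 made up most of the synthase transcript in every library, and the mean Has2 share was highest in day 4 EXP. The summed level of Has1, Has2 and Has3 was 652 ± 112 CPM per kb in CTRL (SD, n = 4) and 461 ± 117 in EXP (n = 5) on day 1, 893 ± 130 and 259 ± 97.7 (n = 3 each) on day 2, and 858 ± 235 (n = 4) and 523 ± 151 (n = 3) on day 4. Of this sum Has2 made up 2.89 ± 1.08% in CTRL and 1.56 ± 1.03% in EXP on day 1, and 1.43 ± 0.04% and 3.21 ± 0.599% on day 2. On day 4 the Has2 share was 2.21 ± 0.545% in CTRL and 13.4%, 6.18% and 3.73% in the 3 EXP libraries, all above the highest CTRL share of 2.84%. The shares of day 2 did not overlap between arms either, while those of day 1 did, with a lower mean in EXP. On day 2 Has2 itself was lower in every EXP library than in every CTRL library, and its share was higher while the Has1 part of the sum was lower by more, whereas on day 4 the mean of Has2 was higher in EXP and that of Has1 lower.

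**Figure D3:**
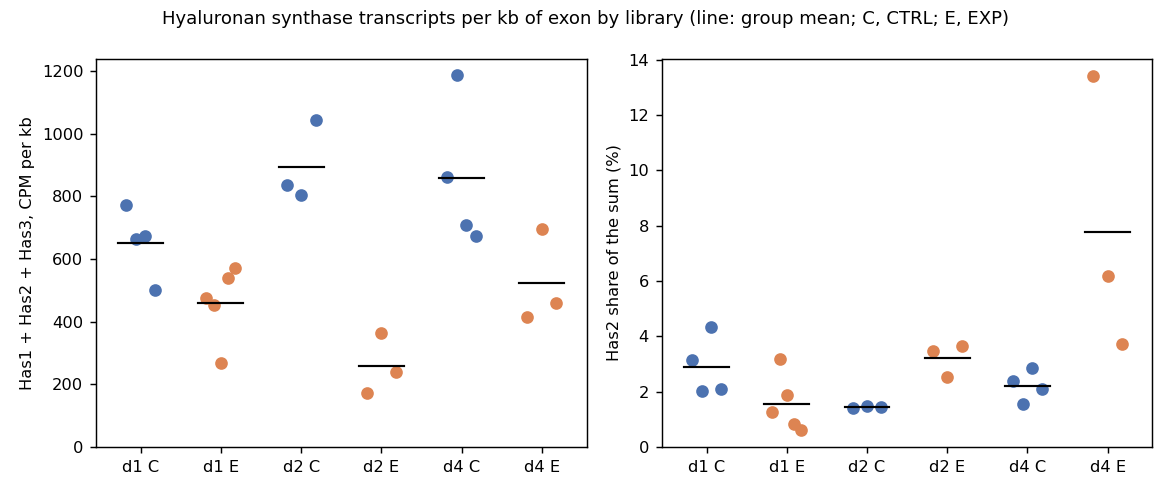
Summed level of the 3 synthase genes in CPM per kb of exon (left) and the share of that sum that is Has2 in percent (right), by day and arm (C, CTRL; E, EXP); points are libraries and lines are group means. The sum is lower in all EXP than in all CTRL libraries on day 2, and the day 4 EXP libraries spread from 3.73% to 13.4% in Has2 share.

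The third synthase gene, Has3, is not among the 8 and was described after its values were seen. It was near the floor of detection, at 0 to 3 counts per library in day 1 CTRL and 7 to 47 counts in day 1 EXP. Like Cemip, it passed the low-count filter only through EXP libraries. Summed counts gave a ratio of 14.0 (95% interval 6.25 to 39.0, which covers counting error only), and Has3 rose on day 1 (log2 fold change 3.62, SE 1.21, adjusted p = 0.0287). The call was lost without CTRL replicate 3 or 4 or EXP replicate 1 or 4 of day 1 (adjusted p up to 0.0804) and within either side of the library split.

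Among the breakdown genes, Cemip, which encodes an extracellular hyaluronan-degrading protein, showed the largest fold changes of the 8 from the lowest level. Cemip (ENSMUSG00000052353) had 9, 1, 1 and 11 counts in the 4 day 1 CTRL libraries and 130, 14, 24, 31 and 47 counts in the 5 day 1 EXP libraries. Its day 2 counts were 3, 2 and 5 in CTRL and 198, 79 and 243 in EXP. Its day 4 counts were 1, 0, 4 and 4 in CTRL and 1555, 34 and 192 in EXP. On each day every EXP library was above every CTRL library, and the day 4 EXP libraries spread widely, with replicate 1 far above the others.

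In CPM, Cemip averaged 0.219 ± 0.209 in CTRL and 1.72 ± 1.59 in EXP on day 1, 0.159 ± 0.0605 and 6.30 ± 3.07 on day 2, and 0.0967 ± 0.0861 and 16.5 ± 21.7 on day 4 (SD). The log2 fold changes on days 1, 2 and 4 were 2.96, 5.25 and 7.33 (SE 0.941, 1.21 and 1.15), with adjusted p of 0.0234, 0.00766 and 0.000469. Summed counts scaled by library size gave ratios of 8.11 (95% interval 5.24 to 13.2), 39.1 (21.1 to 82.0) and 194 (102 to 425), with intervals that cover counting error only. Cemip was thus called higher on each day, from CTRL counts near the floor and after passing the low-count filter only through EXP libraries.

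The size of the Cemip change on day 4 depended on EXP replicate 1: without it the log2 fold change was 5.32 (adjusted p = 0.00266) and the ratio of summed counts 41.2 (21.3 to 91.2). The day 1 call of Cemip was lost without CTRL replicate 2 (log2 fold change 2.63, adjusted p = 0.0682), CTRL replicate 3 (2.59, adjusted p = 0.0723) or EXP replicate 1 (2.23, adjusted p = 0.0752), with no filter on low counts (adjusted p = 0.0704) and with limma voom (adjusted p = 0.0747). By side of the split, its day 1 log2 fold change was 4.05 among high libraries (adjusted p = 0.0496) and 1.495 among low ones, with a single CTRL library (adjusted p = 0.619), and on day 4 it was 9.24 among low ones (adjusted p = 0.00957). Within EXP Cemip was 9.56-fold higher on day 4 than on day 1 (log2 fold change 3.26, SE 0.811, adjusted p = 0.00915), but without EXP replicate 1 of day 4 this was 1.24 on the log2 scale (adjusted p = 0.327), and with limma voom it was 1.68 (adjusted p = 0.192). The joint test of a day-dependent expander effect did not call Cemip (adjusted p = 0.142).

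Hyal1, the lysosomal hyaluronidase, was low in all libraries and its mean was lower in EXP on each day, without a call. Hyal1 (ENSMUSG00000010051) had 6.32, 5.77, 4.28 and 5.15 CPM in day 1 CTRL and 3.71, 3.05, 1.61, 4.09 and 2.78 CPM in day 1 EXP. Day 2 values were 6.26, 5.27 and 5.36 CPM in CTRL and 1.97, 4.16 and 4.00 CPM in EXP, and the arms overlapped on neither of these days. Day 4 values were 5.02, 3.66, 7.96 and 6.51 CPM in CTRL and 0.879, 2.42 and 5.97 CPM in EXP, where replicate 3 lay within the CTRL range. The log2 fold changes of Hyal1 were -0.82, -0.74 and -0.91 (SE 0.384, 0.472 and 0.448), with adjusted p of 0.117, 0.325 and 0.147. Without EXP replicate 3 of day 4 the day 4 value was -1.82 (adjusted p = 0.00548). Counts of Hyal1 are uncertain, since 50.8% of its exon bases are shared on the same strand with Naa80, which also had a lower mean in EXP on day 1, at 2.44 ± 0.554 CPM (n = 5) against 5.45 ± 1.68 CPM (n = 4).

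Hyal2, which encodes a hyaluronidase anchored at the cell surface, lay close to the threshold on days 2 and 4. Hyal2 (ENSMUSG00000010047) had 10.3, 8.47, 7.67 and 8.46 CPM in day 1 CTRL and 7.45, 5.72, 6.09, 10.5 and 7.79 CPM in day 1 EXP. On day 2 it had 5.51, 3.05 and 6.12 CPM in CTRL and 9.82, 6.34 and 12.5 CPM in EXP. On day 4 it had 4.49, 5.09, 8.26 and 4.63 CPM in CTRL and 13.1, 8.01 and 8.41 CPM in EXP. The arms overlapped on day 1, did not overlap on day 2, and overlapped on day 4 only through CTRL replicate 3. The log2 fold changes of Hyal2 were -0.22, 0.96 and 0.81 (SE 0.258, 0.321 and 0.294), with adjusted p of 0.569, 0.0501 and 0.052. On day 2 it passed without EXP replicate 2 (adjusted p = 0.0253), and on day 4 without CTRL replicate 3 (0.0241) or EXP replicate 3 (0.0435). Hyal2 was also called under 6 of 11 other settings on day 2, DESeq2 (adjusted p = 0.0275) and limma voom (0.0104) among them, and under 3 of 12 on day 4, DESeq2 (0.0412) among them. Hyal2 was also the member with the lowest adjusted p for change over days within CTRL, 0.271 in edgeR's joint test.

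Among the binding genes, Cd44, the main hyaluronan receptor gene, was higher in every EXP library on every day. Cd44 (ENSMUSG00000005087) had 182, 158, 220 and 175 CPM in day 1 CTRL and 532, 363, 502, 455 and 513 CPM in day 1 EXP. Day 2 libraries read 189, 155 and 256 CPM in CTRL and 476, 443 and 382 CPM in EXP. Day 4 libraries read 213, 200, 249 and 305 CPM in CTRL and 376, 450 and 469 CPM in EXP. The lowest EXP library of the study, at 363 CPM, was above the highest CTRL library, at 305 CPM.

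Cd44 rose 2.58-fold on day 1 (log2 fold change 1.37, SE 0.173, adjusted p = 1.77e-05), 2.17-fold on day 2 (1.12, SE 0.206, adjusted p = 0.0015) and 1.79-fold on day 4 (0.84, SE 0.189, adjusted p = 0.00472). These calls held without each library in turn, and on day 1 within the high side (log2 fold change 1.26, adjusted p = 0.00389) of the split. On the low side, with a single CTRL library whose spread is assumed to be that of the other groups, the log2 fold change was 1.48 (adjusted p = 0.02). With the libraries of day 4 alone in the fit, the same fold change had an adjusted p of 0.0538. The effect of the expander on Cd44 was 0.53 lower on day 4 than on day 1 (log2, SE 0.254, adjusted p = 0.166), a difference that was not called. The summed level of the 8 leukocyte markers was 43.2 to 86.6 CPM in CTRL and 42.6 to 67.1 in EXP on day 1, 101 to 132 and 83.6 to 110 on day 2, and 93.0 to 124 and 93.7 to 132 on day 4. Most of that sum was Csf1r, at 30.5 to 82.6 CPM in CTRL and 15.5 to 46.8 in EXP on day 1, while Cd68, Cd3e and S100a8 reached higher levels in EXP. Cd68 was at 1.57 to 8.64 CPM in CTRL and 7.71 to 22 in EXP on day 1 and at 2.6 to 4.66 and 9.1 to 31.5 on day 2, Cd3e was at 0.254 to 5.89 and 12 to 38.1 on day 4, and S100a8 was at 0 in day 1 CTRL and at 0.16 to 0.796 in day 1 EXP. The defining markers Ptprc, Adgre1 and Itgam stayed at 0.292 CPM or less in all 22 libraries, and the part of leukocyte RNA in the Cd44 values was not tested.

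Vcan, the versican gene, was higher in EXP on days 2 and 4. Vcan (ENSMUSG00000021614) had 106, 133, 106 and 130 CPM in day 1 CTRL and 119, 113, 195, 149 and 171 CPM in day 1 EXP. On day 2 it had 90.7, 70.2 and 118 CPM in CTRL and 178, 156 and 143 CPM in EXP. On day 4 it had 127, 116, 133 and 106 CPM in CTRL and 340, 315 and 185 CPM in EXP. The arms overlapped on day 1 only. The lowest of the 3 day 4 EXP values was that of replicate 3, the library with 481 CPM of adipocyte markers, whose part in the values was not tested.

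Vcan rose 1.71-fold on day 2 (log2 fold change 0.77, SE 0.235, adjusted p = 0.033) and 2.32-fold on day 4 (1.21, SE 0.217, adjusted p = 0.00107), while its day 1 value of 0.33 (SE 0.193) was not called (adjusted p = 0.215). The day 4 call of Vcan held without each library in turn and among low libraries of the split (1.202, adjusted p = 0.0166). The day 2 call was lost without CTRL replicate 1 or 2 (adjusted p = 0.0925 and 0.154) or EXP replicate 1, 2 or 3 (0.134, 0.0564 and 0.0524). The day 4 effect exceeded the day 1 effect by 0.89 (log2, SE 0.289, adjusted p = 0.0471), a call that remained without only 4 of the 16 libraries of those days, EXP replicates 3 and 5 of day 1 and CTRL replicate 3 and EXP replicate 3 of day 4, and that was lost under 5 of 10 other settings. These were DESeq2 size factors, totals without the 10 genes with most counts, no filter on low counts, limma voom and the replicate number as a block, with adjusted p from 0.0503 to 0.146. Within EXP, Vcan was 1.88-fold higher on day 4 than on day 1 (log2 fold change 0.91, SE 0.205, adjusted p = 0.00445).

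Tnfaip6, the TSG-6 gene, was abundant in all 22 libraries and was not called on any day in the main fit. Tnfaip6 (ENSMUSG00000053475) had 5642, 7449, 6927 and 5359 CPM in day 1 CTRL and 7728, 7409, 7152, 7111 and 8628 CPM in day 1 EXP. On day 2 it had 6736, 5813 and 6308 CPM in CTRL and 5158, 7636 and 4906 CPM in EXP. On day 4 it had 6548, 9212, 5540 and 7624 CPM in CTRL and 3088, 6029 and 5729 CPM in EXP. The arms overlapped on all 3 days, with day 4 EXP replicate 1 the lowest library of all. The log2 fold changes of Tnfaip6 were 0.26, -0.09 and -0.55 (SE 0.202, 0.245 and 0.232), with adjusted p of 0.354, 0.85 and 0.0926, and the sign on day 2 turned with plain library totals in place of TMM. The 95% interval on day 1, -0.17 to 0.69, holds no change as well as a rise of over 1.5-fold. On day 4 the interval, not adjusted for the number of genes, was -1.04 to -0.056. Tnfaip6 was called lower on day 4 under 1 of the 12 other settings run, DESeq2 (adjusted p = 0.0413).

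Counted by overlap, 2 of the 8 genes had EXP above CTRL in all libraries and 1 the reverse on day 1, where 11.4% of all tested genes had the first and 12.5% the reverse. On day 2 these were 4 and 3 of the 8, against 21.2% and 18.1% of all genes, and on day 4 they were 3 and 1, against 15% and 10.9%. The 4 that were higher on day 2 were Hyal2, Cemip, Cd44 and Vcan, and the 3 that were lower were Has1, Has2 and Hyal1. On day 4 Cemip, Cd44 and Vcan were apart upward and Has1 downward. Cemip, which passed the low-count filter only through EXP libraries, is among the higher genes on each day.

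Over the days, 3 of the 8 genes changed within EXP, Has2, Cemip and Vcan, against 14.1% of all tested genes, and 0 changed within CTRL, against 0.302% of all genes (1 of the 8 had an unadjusted p under 0.05, and DESeq2 and limma voom called 0 too). The joint tests within EXP gave adjusted p of 0.000503 for Has2, 0.0277 for Cemip and 0.00951 for Vcan. The call of Cemip over days was lost without any of EXP replicates 2 to 5 of day 1 or EXP replicate 1 of day 4 (adjusted p up to 0.171), with no filter on low counts (0.0823) or with limma voom (0.0565), and that of Vcan without EXP replicate 1 or 2 of day 4 (up to 0.0757). The expander effect on day 4 differed from that on day 1 for 2 of the 8, Has2 and Vcan, against 13.2% of all genes. EXP day 4 differed from EXP day 1 for 3 of the 8, against 18.8% of all genes, and from EXP day 2 for Has2 alone, against 0.444% of all genes.

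By level per kilobase of exon, the order of the 8 genes had the same head in all 6 groups, Tnfaip6, then Has1, then Cd44. Tnfaip6 ranged from 2894 ± 947 CPM per kb in day 4 EXP to 4448 ± 364 in day 1 EXP, and Has1 from 251 ± 96.2 in day 2 EXP to 881 ± 128 in day 2 CTRL. Cd44 ranged from 27.1 ± 3.88 in day 1 CTRL to 69.8 ± 9.99 in day 1 EXP, and its libraries overlapped those of Has2, the next gene, in day 1 CTRL and day 4 EXP. In the 3 CTRL groups Has2 (12.8 ± 1.84 to 19.3 ± 8.79 CPM per kb) stood above Vcan (6.43 ± 1.66 to 8.34 ± 0.831) with no overlap. In EXP Vcan stood above Has2 on day 2 (10.99 ± 1.22 against 7.97 ± 1.75), while on day 1 and day 4 the libraries of these 2 genes overlapped.

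The breakdown genes closed the order. Hyal2 ranged from 1.49 ± 0.494 CPM per kb in day 2 CTRL to 2.99 ± 0.855 in day 4 EXP and Hyal1 from 0.807 ± 0.253 in day 1 EXP to 1.53 ± 0.492 in day 4 CTRL, with overlap between them in day 2 CTRL and day 4 CTRL. Cemip was last in all groups but day 4 EXP, where its 1.35 ± 1.78 CPM per kb overlapped Hyal2 and Hyal1. In day 2 EXP the libraries of Cemip also overlapped those of Hyal1. The coefficient of variation between libraries was largest for Cemip in each of the 6 groups (37.9% to 131%), and it was at most 25.6% for Cd44 and 32.7% for Tnfaip6. Cemip had only 0 to 11 counts per CTRL library, so counting error alone gives a wide spread there, and these values do not compare the genes evenly.

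A wider list of 39 pathway genes outside the 8 was counted alongside, of which 27 were tested. On day 1, 9 of the 27 were called (33.3%), 4 higher and 5 lower, against 28.5% of all genes. On day 2, 3 were called (11.1%), 2 higher and 1 lower, against 13.5%, and on day 4, 3 were called (11.1%), all higher, against 22.5%. The median log2 fold change of the 27 was 0.02, 0.05 and 0.16 on days 1, 2 and 4. Of the 12 genes not tested, Hyal4, Spam1, Hyal5, Hyal6 and Itih1 had 0 counts in every library, and the lymphatic receptor gene Lyve1 reached 9 counts at most.

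**Figure D4:**
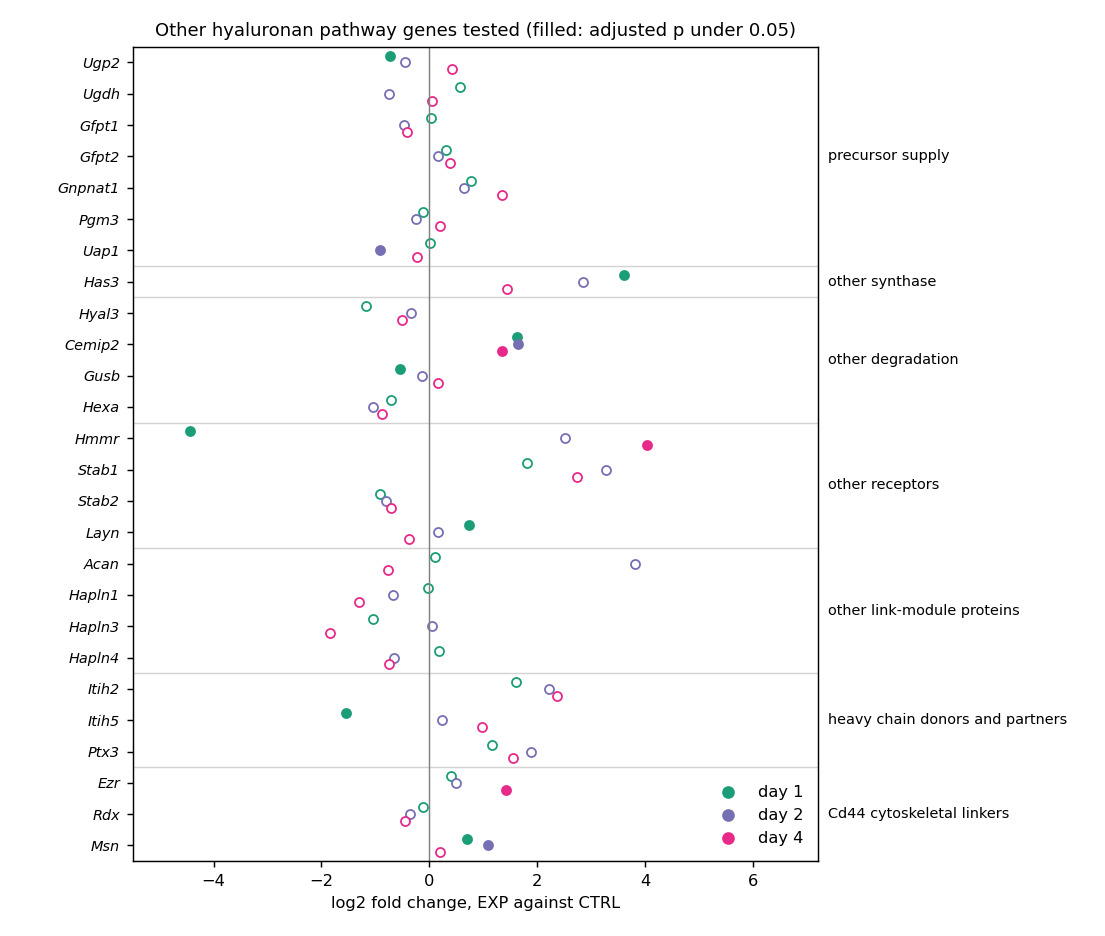
Log2 fold change of EXP against CTRL for the tested pathway genes outside the 8 that are reported here, by role and day; filled points had an adjusted p under 0.05. Cemip2 is filled on all 3 days between 1.34 and 1.65, and Hmmr lies at -4.44 on day 1 and 4.03 on day 4.

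In the group of other breakdown genes, Cemip2, which encodes the surface hyaluronidase TMEM2, was higher in EXP on all 3 days. It averaged 36.8 ± 7.02 CPM in CTRL (n = 4) and 114 ± 23.4 in EXP (n = 5) on day 1, 41.1 ± 6.61 and 129 ± 14.3 (n = 3 each) on day 2, and 48.0 ± 9.74 (n = 4) and 122 ± 18.7 (n = 3) on day 4. Cemip2 rose by 1.63, 1.65 and 1.34 on the log2 scale (SE 0.181, 0.217 and 0.196; adjusted p = 5.94e-06, 0.000103 and 0.000257), with no overlap of arms on any day and calls that held without each library in turn. Per kilobase, Cemip2 at 4.32 ± 0.824 CPM per kb was the more abundant of the 2 CEMIP family genes in day 1 CTRL, where Cemip was at 0.0179 ± 0.017. Of the 5 tested genes in this group 1 was higher and 2 were lower on day 1, and Cemip2 alone was called on days 2 and 4.

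Of the 7 precursor supply genes, 1 was lower on day 1, 1 was lower on day 2 and none was called on day 4. The day 2 gene was Uap1, which makes UDP-N-acetylglucosamine, at 1667 ± 88.4 CPM in CTRL and 880 ± 260 CPM in EXP (log2 fold change -0.92, SE 0.287, adjusted p = 0.0366), a call that was lost without any of the 3 CTRL libraries or EXP replicate 1 or 3 of day 2 (adjusted p up to 0.182). The day 1 gene was Ugp2, of UDP-glucose synthesis, named here after its values were seen.

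Of the 4 tested other receptors, Hmmr, whose product RHAMM is also a mitotic spindle protein, was lower on day 1 and higher on day 4. It averaged 3.75 ± 2.25 CPM in CTRL and 0.165 ± 0.176 in EXP on day 1 (log2 fold change -4.44, SE 0.893, adjusted p = 0.00112) and 0.764 ± 0.62 and 12.4 ± 10.8 on day 4 (4.03, SE 0.915, adjusted p = 0.00539). On the high side of the split Hmmr had a day 1 log2 fold change of -4.84 (adjusted p = 0.0262). Among low libraries it was -3.39 on day 1, with a single CTRL library, and 3.29 on day 4, and neither was called (adjusted p = 0.213 and 0.0722). Of the linkers that tie CD44 to actin, Msn rose on day 1 (log2 fold change 0.69, SE 0.207, adjusted p = 0.0159) and day 2 (1.09, SE 0.251, adjusted p = 0.00716), and Ezr rose on day 4 (1.42, SE 0.339, adjusted p = 0.00674). The Msn call was lost without CTRL replicate 1 on day 1 (adjusted p = 0.0514) and within either side of the split (log2 fold change 0.59 and 0.79, adjusted p = 0.155 and 0.243), and without EXP replicate 1 on day 2 (0.0614), and the Ezr call without EXP replicate 1 of day 4 (0.0691). The third linker, Rdx, was called on no day, and none of the 4 tested link-module genes was called on any day.

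The 2 genes most like each of the 8 over the 22 libraries were those with the smallest root mean square difference of centred log2 CPM among tested genes of at least 5 CPM. They were Mylip (0.401) and Samhd1 (0.402) for Has1, L3hypdh (0.453) and Adamtsl1 (0.453) for Has2, Thrb (0.302) and Tctn3 (0.346) for Hyal1, and Morc3 (0.254) and Tars2 (0.256) for Hyal2. For Cemip they were Il11 (1.18) and Ereg (1.2), for Cd44 Rars (0.278) and Arpc1b (0.285), for Vcan the glycolytic genes Pgam1 (0.251) and Tpi1 (0.252), and for Tnfaip6 Sdcbp (0.162) and Sbds (0.166). The spread of each gene itself (SD of its log2 CPM) was 0.682 for Has1, 0.993 for Has2, 0.718 for Hyal1, 0.492 for Hyal2, 2.41 for Cemip, 0.613 for Cd44, 0.514 for Vcan and 0.328 for Tnfaip6. Each distance was smaller than the spread of the gene itself, and likeness over libraries that share groups is a description only.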

How the data were processed

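Raw gene counts of the 22 libraries were used as the authors deposited them. The submitters' processing notes name Trimmomatic and the build mm39, while the aligner, the counter, the annotation release and strandedness are not given in the sources used here. Symbols and exon lengths came from GENCODE M21, which named 52081 of 55414 identifiers, and promoters from RefSeq on GRCm38.p6, a different build that was used for these windows only. Libraries were scaled by TMM, filterByExpr (minimum count 10) kept 17554 genes, and edgeR 4.0.16 in R 4.3.3 fitted 1 robust quasi-likelihood model to the 6 groups, with 16 residual degrees of freedom. Adjustment was by Benjamini-Hochberg over the genes tested, for every contrast on its own. Alternatives used DESeq2 1.42.0, limma 3.58.1 (voom) and other scalings, filters and library sets, and TMM after the filter was added once the data had been seen. The 8 genes and the lists were chosen with earlier results of these data known. Named pathway genes were the 3 called with the smallest p on each day and any called the same way on all 3 days. A pathway gene that this rule named is not reported here. Deviations of same-numbered CTRL and EXP libraries correlated at -0.0667 to 0.164, and the labels do not say what the numbers share. No block was used in the main fit, and a fit with one was run as an alternative. Chi-square per degree of freedom between replicates was 25.5 to 423, so none was a copy of another. Intervals and the floor of 3 counts cover counting error only.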

Additional observations from a re-analysis of the deposited data

Results flagged for a closer look

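Has2 in EXP replicate 2 of day 1 was at 61.1 CPM, far from the other 4 libraries of its group at 14.9 to 25.8 CPM. The same library had the lowest Cd44 (363 CPM), Cemip (0.548 CPM) and Vcan (113 CPM) of the day 1 EXP group. Without it the Has2 log2 fold change on day 1 was -2.01 (edgeR adjusted p = 0.000231). Hyal2 in CTRL replicate 3 of day 4 was at 8.26 CPM, against 4.49 to 5.09 CPM in the other 3 libraries, and without it the day 4 log2 fold change of Hyal2 was 1.05 (adjusted p = 0.0241). These were 2 of the 24 groups of values that could be examined for a library standing apart, where chance flags about 1 in 20, or 1.2 groups. The expander effect on Has2 differed between days (edgeR joint test, adjusted p = 0.0198), with log2 fold changes of -1.52, -0.68 and 1.08 on days 1, 2 and 4.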

How the results depend on the processing

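The number of the 8 genes called was 3, 4 and 3 on days 1, 2 and 4, and 1 for the day-dependent effect. On day 1 it was 1 among low libraries of the split and 2 to 3 with a library left out. Other settings gave at most 4 on day 1. On day 2 the number was 3 to 5 under other settings and 3 to 4 with a library left out. On day 4 it was 2 to 6 under other settings, with 5 for plain library totals, 5 for a stricter filter (50 counts) and 6 for DESeq2. With a library left out it was 3 to 6 on day 4, 6 without EXP replicate 3. The day-dependent count was 0 without a low-count filter, 2 with limma voom, 3 with DESeq2 and 0 to 2 with a library left out, 0 without EXP replicate 1 of day 4. Pathway genes called were 2 in either side of the split on day 1 (9 in all), 9 with limma voom and 7 with day 2 alone on day 2 (3 in all), and on day 4 (3 in all) 9 with plain totals, 5 with limma voom, 7 with DESeq2 and 5 with the split as a covariate. With a library left out these were 7 to 10, 1 to 4 and 3 to 8. Plain totals moved the median log2 fold change of all genes to 0.21, 0.49 and 0.36 and the share of higher genes among calls from 47.8%, 58.3% and 60.2% to 66.2%, 90.5% and 80.7% on days 1, 2 and 4. The cause of these differences was not tested.

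The log2 fold change of Tnfaip6 on day 2, -0.09, was 0.36 with plain totals and -0.321 to 0.025 with a library of day 2 left out, the highest without EXP replicate 3. Of 176 fold changes of the 8 genes with a library left out, 161 kept their direction and side of the threshold, and of 288 under the other settings 261 did. Tnfaip6 on day 2 gave the only reversals among these. Day 2 has low libraries of the split only and day 4 EXP has no high ones, so no value within the high side exists there.

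With replicate number within day as a block, the day-dependent count was 0 (Has2 adjusted p = 0.116), Vcan on day 2 had an adjusted p of 0.0621, Hyal2 on day 2 of 0.047, and 5 pathway genes were called on day 4. Correlations of deviations between same-numbered libraries were -0.0667 to 0.164. On day 4 they were 0.0793, 0.147 and 0.11, against -0.158 to 0.0994 for libraries of different number. On day 2 all same-numbered values were below 0, and on day 1 they had both signs. The labels do not say what the numbers share, so whether they pair the libraries stays unsettled. The cause of the lost calls was not tested.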
